A study of Mus musculus with 32 samples.

Results

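The genes described here are the collagen genes of the mouse, taken as every gene whose symbol reads Col, a number, the letter a and a number. This rule gave 43 of the 24646 genes measured in liver, epididymal white fat (eWAT), inguinal white fat (iWAT) and brown fat (BAT) of male mice. *Gpr146* encodes an orphan G protein-coupled receptor, and whole-body knockout mice (KO), made with CRISPR/Cas9, were compared with wild-type (WT) mice. All mice were 20 weeks old, had been fed a high-fat diet (HFD) for 3 months and were fasted overnight before the tissues were taken, so diet, sex, age and fast were shared by all groups and no chow-fed group was analysed here. Each tissue held arrays of 4 KO and 4 WT mice. The titles of the KO liver samples name both genotypes, whereas their genotype label, source name and description say KO, and they were used as KO. The labels number the mice 1 to 4 in each genotype and tissue, and the same number was taken to mean the same mouse.

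Collagens are the main proteins of the extracellular matrix. Each chain winds with others of its type into a triple helix. The fibrillar types I, III and V assemble into the fibres of connective tissue, with type I as the bulk, type III beside it in soft tissues and type V starting and limiting the fibril. Type IV forms the sheet-like network of basement membranes, which surround every adipocyte and capillary, and type VI forms beaded microfibrils close to the cell surface. Fibril-associated collagens, such as types XII, XIV and XVI, decorate the fibres, and type VIII forms a short-chain network. In adipose tissue, fibroblasts and preadipocytes make most of the fibrillar collagen, and its build-up in obesity is called fibrosis. The 43 genes comprised 6 fibrillar genes of types I, III and V, 6 basement membrane genes of type IV, 6 microfibril genes of type VI, 5 other fibrillar genes, 9 fibril-associated genes, 3 network genes, 2 multiplexins, 4 transmembrane collagens and 2 remaining ones.

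The values were deposited log2 expression levels from Affymetrix Mouse Gene 2.1 ST arrays, 1 per gene and mouse, so that a difference of 1 is a doubling. Levels of different genes depend on their probes and were not compared with each other, and each tissue was a table with its own scale, with array medians of 3.13 to 3.18 in eWAT and 3.65 to 3.73 in iWAT. Of the collagen genes, 23 lay above the median level of all genes in eWAT, 24 in BAT, 21 in liver and 21 in iWAT. *Gpr146* itself was lower in every KO array than in every WT array of the same tissue, and its mean log2 level differed by -1.16 in BAT, -1.53 in eWAT, -1.55 in iWAT and -1.77 in liver. All 6 hepatocyte markers lay above the median level in liver, all 6 adipocyte markers did in each fat depot, and all 5 brown adipocyte markers did in BAT. Changes were tested with limma, with p-values adjusted over all 24646 genes and a threshold of 0.05 for the adjusted p. Precision is limited by having 4 arrays in each group.

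Several of the genes whose change is described below are neighbours. In the GRCm38.p6 annotation *Col3a1* (chromosome 1, 45311538 to 45349706) and *Col5a2* (chromosome 1, 45374331 to 45503282) lie 24624 bases apart, and *Col6a2* (chromosome 10, 76595756 to 76623630) and *Col6a1* (chromosome 10, 76708792 to 76726044) lie 85161 bases apart. The chains of type I are encoded far from each other, *Col1a1* on chromosome 11 (94936224 to 94953042) and *Col1a2* on chromosome 6 (4505618 to 4541543). RefSeq promoter windows existed for 35 of the 43 genes. The 130 bases before the start are shown for *Col1a2*, *Col3a1* and *Col6a1*, because these genes of 3 collagen types fell together in eWAT. They are chr6:4505488-4505617 on the plus strand, chr1:45311408-45311537 on the plus strand and chr10:76726045-76726174 on the minus strand of GRCm38.p6, read 5′ to 3′, with capitals marking CCAAT and TATAA on either strand.
Col1a2: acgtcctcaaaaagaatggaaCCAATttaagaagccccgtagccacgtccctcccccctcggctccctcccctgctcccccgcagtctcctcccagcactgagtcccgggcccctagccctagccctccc
Col3a1: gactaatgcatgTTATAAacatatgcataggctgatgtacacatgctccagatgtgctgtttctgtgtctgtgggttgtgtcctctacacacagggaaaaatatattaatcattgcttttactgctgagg
Col6a1: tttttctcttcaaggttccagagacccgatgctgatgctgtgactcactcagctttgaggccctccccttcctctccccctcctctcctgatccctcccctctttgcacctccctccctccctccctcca

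The *Col1a2* stretch holds CCAAT and the *Col3a1* stretch holds TATAA, here overlapping its reverse TTATA, whereas the *Col6a1* stretch holds neither. Within the 250 bases before the start, on either strand, CCAAT was found in 33.8% of all 32851 RefSeq windows and in 13 of the 35 collagen genes. It was found in 2 of the 7 genes with a window that fell in eWAT and in 10 of the 27 that passed no test there. TATAA was found in 22.8% of all windows, in 1 of the 7 and in 5 of the 27. GGGCGG, not marked above, was found in 32.7% of all windows and in 21 of the 35 genes, with 4 of the 7 and 17 of the 27. A gene with several windows was counted if any of them held the motif, so shares of genes and of windows are not like for like. These matches describe the sequence and are not evidence of binding.

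In eWAT 11 of the 43 collagen genes were lower and 1 was higher in KO mice at an adjusted p below 0.05. Over all genes, 10.7% passed the test as lower and 4.57% as higher (2632 and 1126 genes). Among genes above the median level, 20.1% were lower, and all 11 falling collagen genes were among the 23 at that level. After quantile normalization of the arrays the split over all genes was 1910 lower and 1830 higher, and that of the collagen genes 10 lower and 1 higher. The higher gene was then *Col23a1* (0.42, adjusted p = 0.0392 from limma) and no longer *Col9a1*. The falls were 4 of the 6 fibrillar genes, 3 of the 6 genes of type VI, 3 of the 9 fibril-associated genes and 1 of the 3 network genes. None of the type IV genes, 5 other fibrillar genes, 2 multiplexins, 4 transmembrane or 2 remaining genes passed. The median log2 fold change was -0.98 for the fibrillar genes and -0.67 for type VI, against -0.02 for type IV, -0.02 for all 43 collagen genes and 0.03 for all genes. As the tissue was measured in bulk, fewer cells of a type and less RNA per cell cannot be told apart.

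**Figure D1:**
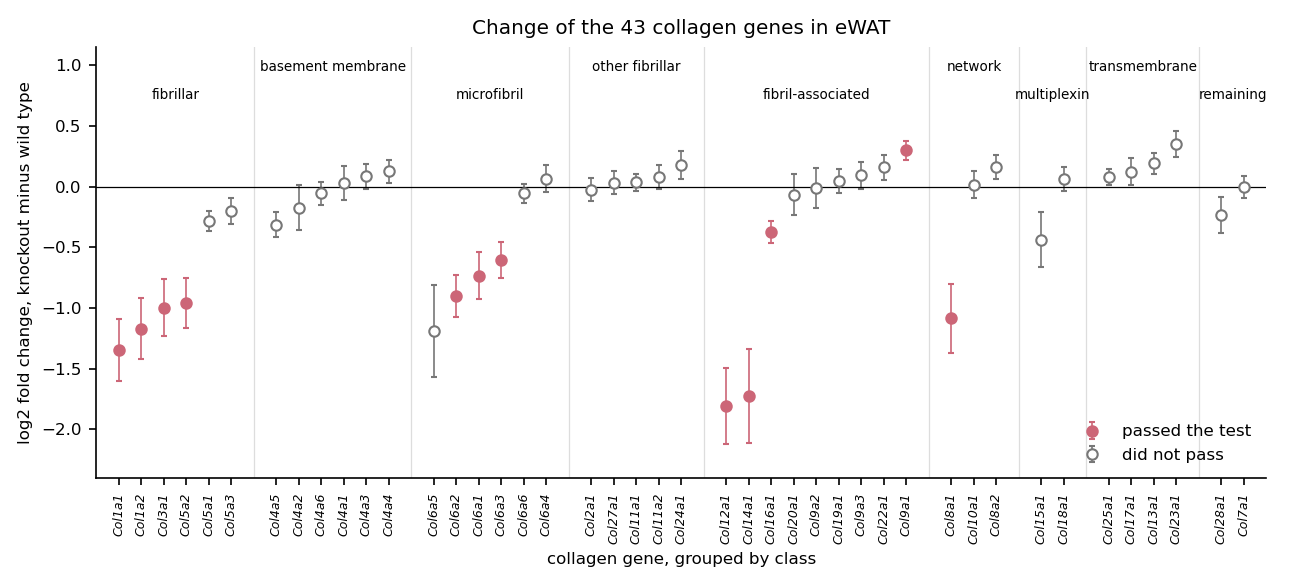
Log2 fold change (KO minus WT, vertical axis) of each of the 43 collagen genes in eWAT, grouped by class along the horizontal axis, with bars of 1 standard error from limma and filled points for an adjusted p below 0.05 (n = 4 mice per genotype). The filled points below 0 are 4 fibrillar genes, 3 of type VI, 3 fibril-associated genes and *Col8a1*, and the type IV genes lie between -0.32 and 0.12.

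The type I chains fell most among the fibrillar genes. *Col1a1*, which encodes the α1 chain, measured 8.95, 8.75, 8.28 and 8.73 in WT mice and 7.12, 8.13, 7.20 and 6.85 in KO mice. All KO values lay below all WT values, with KO mouse 2 nearest to the WT mice. The mean was thus 2.55-fold lower, at a log2 fold change of -1.35 with a standard error of 0.26 (adjusted p = 0.0123 from limma). *Col1a2*, the partner chain, measured 7.14, 6.98, 6.45 and 6.81 in WT mice and 5.54, 6.46, 5.40 and 5.30 in KO mice. Here KO mouse 2 reached WT mouse 3, so that the groups overlapped, and the fold change was -1.17 (standard error 0.25, adjusted p = 0.0169).

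*Col3a1*, the type III chain, measured 9.35, 9.19, 8.40 and 8.98 in WT mice against 7.89, 8.56, 7.79 and 7.68 in KO mice, a log2 fold change of -0.999 (adjusted p = 0.0223). Its neighbour *Col5a2*, a type V chain, measured 6.31, 6.07, 5.53 and 6.23 against 4.91, 5.60, 4.96 and 4.83, a change of -0.96 (adjusted p = 0.0177). In both genes KO mouse 2 and WT mouse 3 overlapped and the other mice were apart. The other type V chains did not pass. *Col5a1* measured 4.29 to 4.57 in WT and 4.10 to 4.27 in KO mice without overlap, and its difference of -0.28 had an adjusted p just above the threshold of 0.05. *Col5a3* differed by -0.20 with overlapping groups (adjusted p = 0.249).

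The 3 main chains of type VI collagen, *Col6a1*, *Col6a2* and *Col6a3*, were all lower in KO mice. *Col6a2* measured 7.63, 7.56, 7.07 and 7.31 in WT mice and 6.61, 6.88, 6.29 and 6.18 in KO mice, a change of -0.90 on the log2 scale (adjusted p = 0.0128, standard error 0.17). *Col6a1* measured 7.10, 7.03, 6.86 and 6.95 against 6.55, 6.70, 5.74 and 5.99, a change of -0.74 (adjusted p = 0.0333). *Col6a3*, whose cleaved end is the adipokine endotrophin, measured 6.96, 7.08, 6.51 and 6.82 against 6.24, 6.46, 6.32 and 5.91, a change of -0.61 (adjusted p = 0.0246). In none of these genes did a KO value reach a WT value. The later-found chain *Col6a5* also separated the genotypes, at 6.36, 6.75, 6.38 and 6.63 against 4.24, 6.31, 4.99 and 5.82. Its difference of -1.19 did not pass, with an adjusted p of 0.0629 and a wide spread among the KO mice. *Col6a4*, below the median level, and *Col6a6* differed by 0.07 and -0.06 (adjusted p = 0.743 and 0.678).

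None of the 6 type IV genes passed the test in eWAT. *Col4a1* measured 7.88, 7.86, 7.42 and 7.87 in WT mice and 7.86, 7.77, 8.01 and 7.50 in KO mice, a difference of 0.03 with a standard error of 0.14 (adjusted p = 0.921). *Col4a2*, which shares its start region with *Col4a1* on the other strand, measured 7.30, 7.32, 7.06 and 7.43 against 7.61, 7.14, 7.03 and 6.62, a difference of -0.17 (adjusted p = 0.570). Values of KO and WT mice were mixed in both. *Col4a5* differed by -0.32, with an adjusted p of 0.0669. *Col4a3*, *Col4a4* and *Col4a6* lay below the median level and differed by 0.08, 0.12 and -0.06.

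The 2 largest falls among the collagen genes of eWAT were in fibril-associated collagens. *Col12a1*, whose product binds the surface of type I fibres, measured 5.39, 5.82, 4.66 and 6.28 in WT mice and 3.93, 4.09, 3.57 and 3.33 in KO mice, a 3.50-fold lower mean with a log2 change of -1.81 and a standard error of 0.31 (adjusted p = 0.0103). The groups did not overlap, and KO mouse 2 was the highest of its group without standing apart. *Col14a1*, a gene used as a mark of matrix fibroblasts, measured 6.53, 6.38, 5.72 and 6.32 against 4.13, 5.83, 4.18 and 3.91, a change of -1.73 (adjusted p = 0.0189). In this gene KO mouse 2 lay above WT mouse 3 and far from the other KO mice. *Col16a1* fell by 0.38 on the log2 scale without overlap (adjusted p = 0.0246). *Col8a1*, of the short-chain network collagen, measured 6.16, 6.09, 5.14 and 5.78 in WT mice and 4.13, 5.29, 4.49 and 4.91 in KO mice, a change of -1.09 (adjusted p = 0.0302), and KO mouse 2 again lay above WT mouse 3.

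The single rise was *Col9a1*, known from cartilage, by 0.30 (adjusted p = 0.0327), from 2.47 to 2.73 in WT mice to 2.86 to 3.00 in KO mice. These levels lay below the median of all genes. *Col9a1* passed in 5 of the 14 alternatives tried for it, 2 of them fits with 1 mouse left out. The transmembrane collagen *Col23a1* differed by 0.35 in the same direction and did not pass (adjusted p = 0.0565). With limma it passed after quantile normalization (adjusted p = 0.0392) and without KO mouse 2 (adjusted p = 0.00486). The remaining genes outside types I, III, IV, V and VI differed by between -0.44 (*Col15a1*, adjusted p = 0.224) and 0.19 (*Col13a1*, adjusted p = 0.178).

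**Figure D2:**
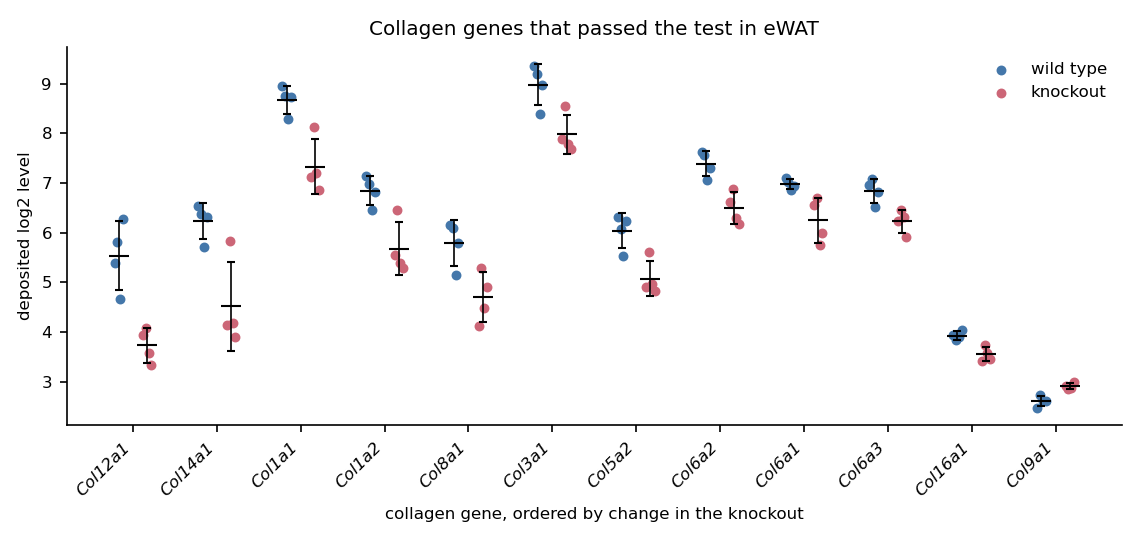
Deposited log2 level (vertical axis) of the 12 collagen genes with an adjusted p below 0.05 in eWAT, ordered along the horizontal axis by their change, with 1 point per mouse and bars for the mean and SD of 4 mice. The KO mean lies below the WT mean in 11 genes and above it in *Col9a1*, and in *Col14a1* a single KO mouse at 5.83 lies apart from 3 others between 3.91 and 4.18.

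Of the 43 genes, 8 were lower in every KO mouse than in every WT mouse and 1 was higher. Of all 24646 genes, 13.0% were lower in that way and 2128 genes were higher. How many genes passed depended on single mice. Without KO mouse 2, 13 collagen genes were lower and 2 higher, and all 12 genes called with every array were among them, while over all genes 3505 were lower (14.2%) and 1924 higher (7.81%). Without WT mouse 1, 2 or 4, or without KO mouse 1 or 4, the count of called genes was 5, 3, 4, 6 or 5. Over all genes, 6.73%, 4.33%, 5.08%, 6.56% and 5.99% were then lower, against 10.7% with every array. Those higher were 2.6%, 1.54%, 1.65%, 2.38% and 2.41%, against 4.57%. *Col1a1*, *Col12a1* and *Col6a2* passed the test whichever single mouse was left out, with log2 fold changes of -1.62 to -1.19, -2.10 to -1.56 and -1.03 to -0.80. No called gene changed direction under any alternative that was tried.

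Of the KO mice, KO mouse 2 stood nearest to the WT mean in the fibrillar, type VI, fibroblast and macrophage lists. In the type IV and adipocyte lists it did not. The mean of the 6 fibrillar genes, relative to the WT mean, was -0.89, -0.36, -0.95 and -1.11 in KO mice 1 to 4, and 0.25, 0.07, -0.35 and 0.03 in WT mice 1 to 4. For type VI it was -0.65, -0.29, -0.74 and -0.60 in the KO mice, below all 4 WT mice at -0.14 to 0.09. For type IV, KO mice at -0.11 to 0.02 overlapped WT mice at -0.14 to 0.07. Of 8 fibroblast markers, none of them a collagen, 7 were lower in KO eWAT, with list means of -1.61, -0.38, -1.48 and -1.44 in the KO mice and -0.19 to 0.14 in WT mice. All 8 macrophage markers were lower, with list means of -2.65, -0.41, -1.95 and -2.44 against -0.07 to 0.17. Of 5 mesothelial markers, which line the surface of the epididymal depot, 2 were lower, with means of -1.06 to -0.71 against -0.77 to 0.78, and WT mouse 3, the lowest WT mouse for the fibrillar genes, was also the lowest here. Of 6 endothelial markers 1 was higher and none lower. Of 6 adipocyte markers 5 were higher and 1, *Lep*, was lower, with list means of 0.24 to 0.61 in KO and -0.13 to 0.12 in WT mice. The part of these cells in the collagen values was not tested.

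**Figure D3:**
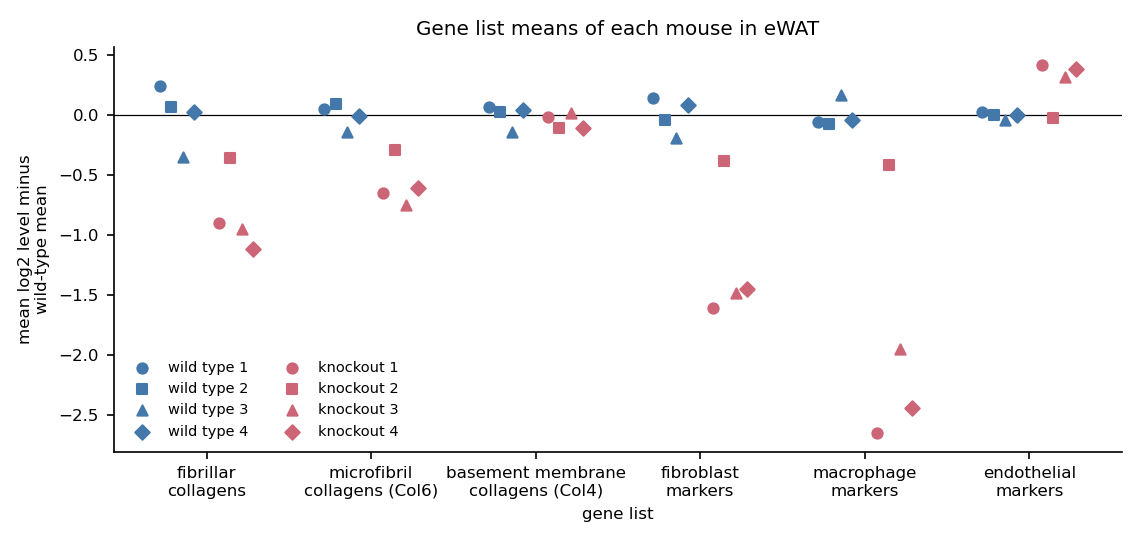
Mean log2 level of 3 collagen classes and 3 marker lists in eWAT of each mouse, relative to the mean of the 4 WT mice (vertical axis), with a symbol for each mouse number. KO mice 1, 3 and 4 lie lowest for fibrillar collagens, fibroblast markers and macrophage markers, KO mouse 2 lies between -0.41 and -0.36 in these lists, and the type IV means of the genotypes overlap.

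Genes that fold, modify, process and bind collagen were taken from a list of 43 genes that holds no collagen. In eWAT 21 of them were lower and none was higher in KO mice, against 10.7% and 4.57% of all genes. Of the 43, 34 lay above the median level, where 20.1% of all genes were lower. The median log2 fold change was -0.57 over the list, 0.03 over all genes and -0.08 over all genes above the median level. Among genes of synthesis in the endoplasmic reticulum 10 of 19 fell. They included *Creb3l1*, a transcription factor of the secretory pathway, by 1.41 on the log2 scale (adjusted p = 0.0238), and *Plod2*, a lysyl hydroxylase that prepares cross-links, by 1.13 (adjusted p = 0.0185). The prolyl hydroxylase subunit *P4ha1* fell by 0.91 (adjusted p = 0.0113), and *Fkbp10*, a chaperone, by 0.88 (adjusted p = 0.00854). Of the genes that trim and cross-link collagen outside the cell 7 of 14 fell. The lysyl oxidases *Lox*, *Loxl1* and *Loxl2* changed by -1.38, -1.26 and -0.998 (adjusted p = 0.0195, 0.0194 and 0.0391), and *Pcolce*, which enhances the removal of the procollagen C-terminal end, changed by -1.23 (adjusted p = 0.0136). Of the receptors 4 of 10 fell. *Lair1*, an inhibitory collagen receptor of leukocytes, fell by 2.27 on the log2 scale (adjusted p = 0.0167), and *Mrc2*, which takes up collagen for breakdown, fell by 1.84 (adjusted p = 0.0107).

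In liver no collagen gene passed the test with limma, where 0.661% of all genes did (163 genes, 123 of them lower). Without adjustment, 3 collagen genes had a p below 0.05 in each direction, against 7.48% of all genes lower and 5.79% higher. *Col1a1* measured 3.94, 4.49, 4.15 and 4.71 in WT livers and 3.75, 4.56, 3.95 and 4.30 in KO livers, a difference of -0.18 with a standard error of 0.19 (adjusted p = 0.744). *Col3a1* measured 3.69 to 4.51 against 3.62 to 4.30, a difference of -0.33 (adjusted p = 0.516). *Col1a2* and *Col5a2* lay below the median level and, with *Col5a1* and *Col5a3*, differed by between -0.05 and 0.12. Of type IV, *Col4a1* differed by -0.32 (adjusted p = 0.327) and *Col4a2* by -0.05, and the 6 genes of type VI differed by between -0.31 (*Col6a3*, adjusted p = 0.418) and 0.18 (*Col6a2*, adjusted p = 0.564).

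The largest difference in liver was in *Col14a1*, at 4.40, 4.86, 4.13 and 4.52 in WT and 3.06, 4.20, 3.58 and 3.64 in KO livers. KO mouse 2 was the highest of its group and overlapped the lowest WT mouse, and the difference of -0.86 had an adjusted p of 0.109. Without KO mouse 2 it was -1.05 and passed (adjusted p = 0.0236), the single collagen gene that did. *Col18a1*, the multiplexin from which endostatin is cut and which hepatocytes express, measured 7.69 to 7.90 in WT and 7.94 to 8.05 in KO livers without overlap, a difference of 0.19 (adjusted p = 0.280). *Col12a1* differed by -0.22 at a level below the median (adjusted p = 0.317). Among the 43 genes that handle collagen, *P4ha1* fell by 1.41 (adjusted p = 0.00565) and *Plod1* by 0.41 (adjusted p = 0.0275), and no other passed. *P4ha1* measured 5.26 to 6.00 in WT and 3.83 to 4.41 in KO livers. Of 6 hepatic stellate cell markers 3 were lower in KO livers (*Lrat*, *Reln* and *Hgf*), with list means of -0.97 to -0.35 in KO and -0.19 to 0.13 in WT mice, while the means of the fibrillar collagens overlapped, at -0.20 to 0.13 and -0.15 to 0.14. Of 8 fibroblast markers 2 were lower (*Dcn* and *Lum*), with means of -0.67 to -0.26 in KO and -0.11 to 0.14 in WT mice, and of 6 endothelial markers 3 were lower (*Cdh5*, *Kdr* and *Erg*), with means of -0.97 to -0.29 against -0.04 to 0.07. The part of these cells in the liver values was not tested.

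In iWAT no collagen gene and 0% of all genes passed the test with limma, the smallest adjusted p of any gene being 0.221. At an unadjusted p below 0.05, 1 collagen gene was lower and 4 were higher, against 8.34% and 7.09% of all genes. *Col1a1* measured 7.45, 7.25, 8.23 and 8.23 in WT mice and 8.46, 7.76, 8.02 and 7.79 in KO mice, a difference of 0.22 with a standard error of 0.26 (adjusted p = 0.675). *Col3a1* measured 7.74, 7.52, 8.72 and 8.84 against 8.89, 8.23, 8.84 and 8.37, a difference of 0.38 (adjusted p = 0.548). WT mice 1 and 2 were the lowest of all in both genes and WT mice 3 and 4 lay among the KO mice. The other fibrillar genes differed by between -0.03 (*Col1a2*) and 0.46 (*Col5a3*, adjusted p = 0.388), type IV by between 0.03 and 0.27 (*Col4a1*, adjusted p = 0.681), and type VI by between -0.02 and 0.18 (*Col6a3*, adjusted p = 0.731).

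The WT mice with the lower collagen values carried the most B cell RNA. The mean of 6 B cell markers, which mark lymph node in this depot, was 2.33 and 2.29 in WT mice 1 and 2 and -2.28 and -2.33 in WT mice 3 and 4, relative to the WT mean, and -1.95, 1.95, -2.06 and 0.21 in KO mice 1 to 4. Without the 4 arrays with high B cell markers, 2 mice per genotype were left and no collagen gene passed, while over all genes 916 did (711 lower and 205 higher). The 6 fibrillar genes then differed by between -0.41 and 0.10 with a median of 0.05, against 0.14 with all arrays, and the part of lymph node in the values was not tested further. The smallest p values outside these classes were those of *Col8a2* with 0.37 (adjusted p = 0.246), *Col14a1* with -0.46 (adjusted p = 0.248) and *Col13a1* with 0.30 (adjusted p = 0.304). *Col12a1* measured 6.23 in WT mouse 4 and 3.44 to 4.38 in the others, and that mouse also had the highest mean of skeletal muscle markers, 1.30 above the WT mean. None of the 43 genes that handle collagen passed. At an unadjusted p below 0.05, 8 were lower and none higher, against 8.34% and 7.09% of all genes. Of the 43, 32 lay above the median level, where 1862 of 12323 genes were lower at that p and 815 higher. The smallest adjusted p values were those of *Itga1*, a collagen-binding integrin chain (-0.68, adjusted p = 0.221), and *Leprel1*, now called P3h2, a prolyl 3-hydroxylase (-0.84, adjusted p = 0.233).

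In BAT no collagen gene passed with limma, where 0.0284% of all genes did (7 genes), and at an unadjusted p below 0.05, 3 collagen genes were lower and 2 higher, against 7.44% and 5.25% of all genes. *Col1a1* measured 6.56, 6.09, 5.92 and 5.84 in WT mice and 5.54, 6.30, 6.04 and 5.75 in KO mice, a difference of -0.20 (standard error 0.19, adjusted p = 0.735). *Col3a1* measured 6.02 to 6.75 against 6.04 to 6.72, a difference of 0.09 (adjusted p = 0.900). The other fibrillar genes differed by between -0.11 (*Col1a2*) and 0.29 (*Col5a3*, adjusted p = 0.406), and *Col6a1*, *Col6a2* and *Col6a3* by 0.03, 0.04 and 0.03. *Col4a1* and *Col4a2* differed by -0.13 and -0.16 (adjusted p = 0.851 and 0.830).

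*Col23a1*, a transmembrane collagen, measured 3.66, 3.71, 3.89 and 3.78 in WT BAT and 3.50, 3.25, 3.34 and 3.36 in KO BAT. The groups did not overlap, and the difference of -0.40 had an adjusted p of 0.130. *Col4a5* was likewise lower in every KO mouse than in every WT mouse, with a difference of -0.26 (adjusted p = 0.255). The type VI gene *Col6a4* was higher in every KO mouse than in every WT mouse, at a level below the median. Its difference was 0.23 (adjusted p = 0.362). *Col12a1* measured 5.32, 6.47, 5.24 and 6.45 against 5.52, 4.24, 4.75 and 4.93, a difference of -1.01 (adjusted p = 0.243). Of the genes that handle collagen none passed. *P4ha1* differed by -1.92 (adjusted p = 0.137) and *Serpinh1*, the collagen chaperone HSP47, by -0.79 (adjusted p = 0.154). Means of skeletal muscle markers ranged from -2.09 to 2.53 in WT and from -2.10 to 2.67 in KO mice, and without the 3 arrays with high values no collagen gene passed either.

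**Figure D4:**
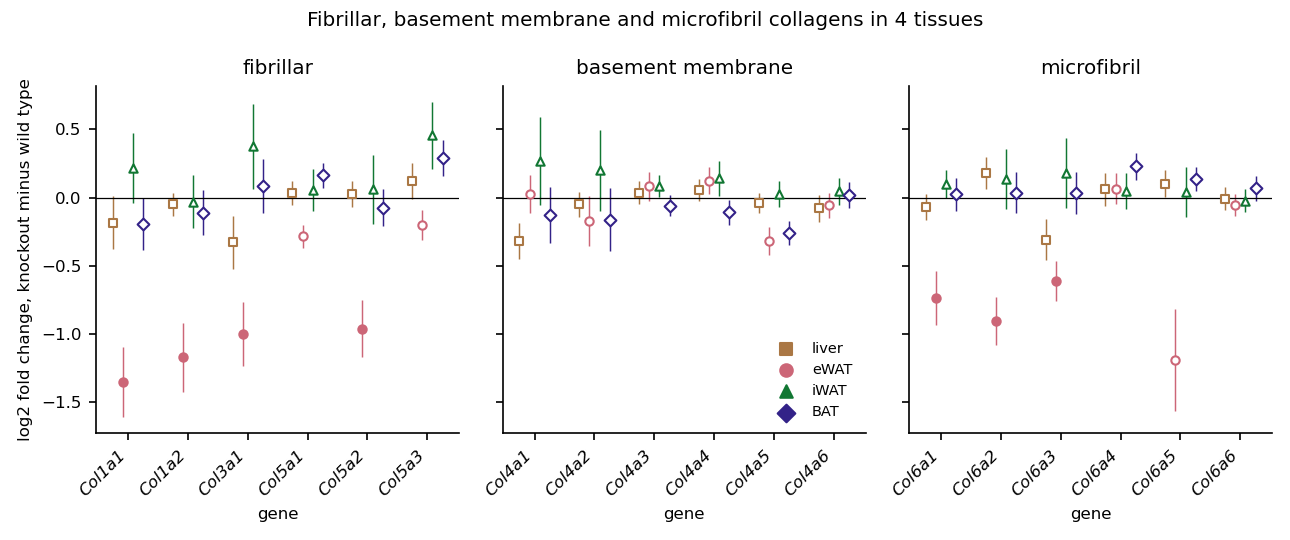
Log2 fold change (KO minus WT, vertical axis) of the genes of types I, III and V, type IV and type VI in liver, eWAT, iWAT and BAT, with bars of 1 standard error from limma, filled symbols for an adjusted p below 0.05 and open symbols for the rest (n = 4 mice per genotype and tissue). The 7 filled symbols are fibrillar and type VI genes in eWAT, between -1.35 and -0.61, and the type IV genes lie between -0.32 and 0.27 in all 4 tissues.

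Whether the change in eWAT differed from that in another tissue was tested on the difference between the 2 tissues in each mouse, since a gene that passes in one tissue alone is not thereby different. Against liver, 6 collagen genes changed more negatively in eWAT and none more positively. Of all 24646 genes, 5.71% were more negative and 654 genes more positive. The 6 collagen genes were *Col12a1* with a difference of -1.59 (adjusted p = 0.0138), *Col5a2* with -0.99 (0.0147), *Col6a2* with -1.08 (0.0187), *Col1a1* with -1.16 (0.0198), *Col1a2* with -1.12 (0.0214) and *Col8a1* with -1.08 (0.0221). *Col14a1*, which was lower in both tissues, differed by -0.87 and did not pass (adjusted p = 0.0689), nor did *Col3a1* with -0.67 (adjusted p = 0.165). Without WT mouse 2 or KO mouse 4 the count was 2 or 3, and without KO mouse 2 it was 10. Differences over all genes were not counted in these fits. In eWAT alone, calls over all genes moved the same way, from 3758 with every array to 1448, 2070 and 5429. *Col12a1* and *Col5a2* passed whichever mouse was left out.

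Against BAT, 8 collagen genes changed more negatively in eWAT and 1 more positively, with 4.75% and 2.17% of all genes. The negative ones were *Col14a1* with -1.73 (adjusted p = 0.0113), *Col1a1* with -1.15 (0.0105), *Col3a1* with -1.09 (0.0197), *Col1a2* with -1.06 (0.0181), *Col6a2* with -0.94 (0.0167), *Col5a2* with -0.88 (0.0299), *Col6a1* with -0.76 (0.0163) and *Col6a3* with -0.64 (0.0403). *Col23a1* was the positive one, at 0.35 in eWAT and -0.40 in BAT, a difference of 0.75 (adjusted p = 0.0126), although it passed in neither depot. *Col12a1* differed by -0.80 and did not pass (adjusted p = 0.159). Without WT mouse 2 or WT mouse 4 the count was 3 in both cases, and without KO mouse 2 it was 14. Here too the differences over all genes were not counted. Calls over all genes in eWAT alone moved likewise, from 3758 to 1448, 1659 and 5429. *Col14a1*, *Col1a1* and *Col23a1* passed whichever mouse was left out.

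Against iWAT no collagen gene and 0% of all genes passed with limma, although 12 collagen genes had an unadjusted p below 0.05 in the negative and 1 in the positive direction, against 6.37% and 4.39% of all genes. The smallest adjusted p was that of *Col1a1*, which differed by -1.57 with a standard error of 0.42 (adjusted p = 0.198). Without KO mouse 2, 2 genes passed, *Col14a1* with -1.71 (adjusted p = 0.00514) and *Col1a1* with -1.92 (adjusted p = 0.0386). Differences over all genes were not counted in that fit. These comparisons share the eWAT arrays and are not independent of each other. Of the 11 genes that fell in eWAT, the log2 fold change was negative in liver for 8, in iWAT for 4 and in BAT for 4. Of all 24646 genes it was negative in liver for 11564, in iWAT for 11523 and in BAT for 12118.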

How the data were processed

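The authors deposited log2 expression values from Affymetrix Mouse Gene 2.1 ST arrays, 1 table per tissue and 1 value per gene symbol and mouse, from 100 ng of total RNA. Software, probe summary and normalization are not given in the sources used here. Several probe sets had been averaged for 3 collagen genes. Samples were grouped by tissue and genotype from the labels. Entries with a blank name or a name turned into a number (1 or 2 per table) were left out, which left 24646 genes. KO and WT mice were compared with limma 3.58.1 (R 4.3.3), Benjamini-Hochberg adjusted over all genes of a tissue, and tissues by the same model on the difference of log2 values in each mouse. The procedure was tested on simulated data. Genes named are all of types I, III, IV, V and VI, other collagen and collagen-handling genes past the threshold (at most 10 by size) or with the smallest p where none passed, *Gpr146*, and markers beside a result. The members and lists were chosen with earlier results of these data known. Symbols were matched to GRCm38.p6, and figures drawn with matplotlib 3.10.9. Alternatives were quantile normalization, equal array medians, dim genes left out (below the median level), a trended and robust prior, array weights, the methods' t-test, a replicate block, the mouse as a random block, and each array left out. Leaving out arrays rich in B cell or muscle markers was chosen after seeing the data.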

Additional observations from a re-analysis of the deposited data

Results flagged for a closer look

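Among 172 groups of 4 mice checked in the named genes, 9 held a mouse far from the other 3, where chance alone flags about 1 group in 20. In liver these were *Col4a2* in WT mouse 2 at 4.17, *Col4a5* in WT mouse 1 at 3.00, *Col6a4* in KO mouse 1 at 2.54 and *Col6a6* in KO mouse 2 at 3.49. In eWAT they were *Col4a1* in WT mouse 3 at 7.42, with the other WT mice at 7.86 to 7.88, and *Col14a1* in KO mouse 2 at 5.83, with the other KO mice at 3.91 to 4.18. In BAT they were *Col3a1* in WT mouse 1 at 6.75, *Col4a6* in KO mouse 4 at 2.20 and *Col6a2* in KO mouse 1 at 5.10.

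The effect of the knockout differed between eWAT and liver, by the test of the difference itself, for *Col12a1* (-1.59), *Col1a1* (-1.16), *Col1a2* (-1.12), *Col8a1* (-1.08), *Col6a2* (-1.08) and *Col5a2* (-0.99). Between eWAT and BAT it differed for *Col14a1* (-1.73), *Col1a1* (-1.15), *Col3a1* (-1.09), *Col1a2* (-1.06), *Col6a2* (-0.94), *Col5a2* (-0.88), *Col6a1* (-0.76), *Col6a3* (-0.64) and *Col23a1* (0.75), all as differences of log2 fold changes.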

How the results depend on the processing

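No called collagen gene changed direction under any alternative. In eWAT, the methods' t-test called 14 genes lower and 3 higher before adjustment, against 3871 and 2927 of all genes. After adjustment it called 0, with 38 genes of the whole table left. The other alternatives with all arrays called 11 to 15 collagen genes, against 3405 to 5295 of all genes. With 1 array left out the count of called collagen genes ranged from 3 to 15 in eWAT and from 0 to 1 in liver. Of all genes, 1448 to 5429 were then called in eWAT and 41 to 300 in liver. The count of tissue differences ranged from 2 to 10 against liver, 0 to 2 against iWAT and 3 to 14 against BAT. Those over all genes were not counted in these fits. Without genes below the median level, the median log2 fold change of the collagen genes was -0.437 in eWAT, against -0.0246, and -0.0689 in liver, against -0.00361. The methods' t-test called 0 collagen genes after adjustment in liver, iWAT and BAT, against 2, 1 and 0 of all genes. Before adjustment it called 2 lower and 2 higher in liver and in BAT and 1 lower and 2 higher in iWAT. Over all genes, 1544 were then lower and 1357 higher in liver, 1546 and 1257 in BAT, and 1466 and 1701 in iWAT. The replicate numbers gave no consistent pairing of KO with WT mice, with correlations of deviations from -0.39 to 0.67. Of the 16 WT arrays, 8 correlated best with the KO array of their own number, out of 4 KO arrays in each tissue. With the replicate block, 11 collagen genes were called in eWAT and 1 in liver (*Col14a1*, adjusted p = 0.0298), against 3405 and 189 of all genes. In that setting 7, 0 and 10 collagen genes differed against liver, iWAT and BAT, with differences over all genes not counted. With the mouse as a random block, arrays of the same mouse correlated by 0.01 to 0.08 between tissues.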
